A study of Prunus persica with 16 samples.

Results

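In buds of the peach cultivar TropicBeauty, 67 genes were low by group medians 3 days after a hydrogen cyanamide spray. By the same medians they were close to the control level 4 days later. They were chosen from 5733 genes with a mean of 20 FPKM or more over 16 libraries, out of 26873 identifiers. FPKM is a level per gene length, scaled to the fragments of the library. For each gene, the group median of log2(FPKM + 1) over 4 libraries was taken, and hydrogen cyanamide (HC) minus control had to be at or under -1.5 on day 3 and between -0.5 and 0.5 on day 7. These differences chose the members, so all HC minus control values are a description. Calls on these values are given once, beside the share of all genes, and support nothing about the members.

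Each of the 4 groups had 4 libraries: untreated control buds at 3 days, HC buds at 3 days, control buds at 7 days and HC buds at 7 days. All trees were 5 years old, grew in a Florida orchard on Floridaguard rootstock and had received 11 chilling hours against the 150 the cultivar needs. Per the labels, HC was sprayed at 1% (v/v) together with 0.15% surfactant on 4 trees, and 4 further trees were left unsprayed. Each tree is 1 biological replicate, and HC and surfactant cannot be told apart. With 8 trees for 16 libraries, both days would have drawn on the same trees, but no label ties a library of day 3 to one of day 7, and the fits take all libraries as independent. The labels do not say whether flower or leaf buds were taken. The identifiers carry no gene name in the sources used here, so the tissue was not checked against marker genes and members are described by identifier and level alone.

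Buds of temperate fruit trees stop growing in autumn and resume only after a spell of cold, the chilling requirement, which prevents growth during warm days in winter. Where winters are too mild, growers spray hydrogen cyanamide to bring bud break forward. The compound is toxic to cells at high dose, is known to inhibit catalase, and is thought to act through a short oxidative and respiratory stress in the bud.

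Estimated depth, in M (mega) reads, ranged from 0.5475 M to 22.0 M per library, and was lower on day 7, with a median of 2.85 M in control and 3.46 M in HC against 7.29 M and 10.8 M on day 3. The shallowest libraries were control replicate 1 at 7 days and control replicate 2 at 3 days, with 1.39 M reads in the latter. Of the 67 members, 19 were listed at 0 in the first of these and 15 in the second. HC replicate 4 at 3 days listed 17 members at 0 with 5.73 M reads, and HC replicate 2 at 3 days listed 12 at 0 with 6.24 M. In the other 12 libraries between 0 and 6 members were at 0. An FPKM of 0 means no more than this entry in the matrix, and 33 members had no 0 in any library.

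The median member stood at 67.5, 71.7, 68.5 and 62.6 FPKM in the 4 control libraries of day 3. It stood at 14.1, 15.0, 21.3 and 9.04 FPKM in the HC libraries of that day. At 7 days it stood at 55.0, 58.7, 66.4 and 42.3 FPKM in control and at 51.0, 54.5, 55.5 and 52.9 FPKM in HC. All 4 HC libraries of day 3 were below the other 12, also replicate 3, which had 1 member at 0 and 22.0 M reads. In whole buds, fewer cells of a type and less RNA per cell cannot be told apart. Together the members took up between 0.265% and 0.467% of the summed FPKM of an HC library at 3 days and between 1.03% and 1.66% of that of any other library.

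**Figure D1:**
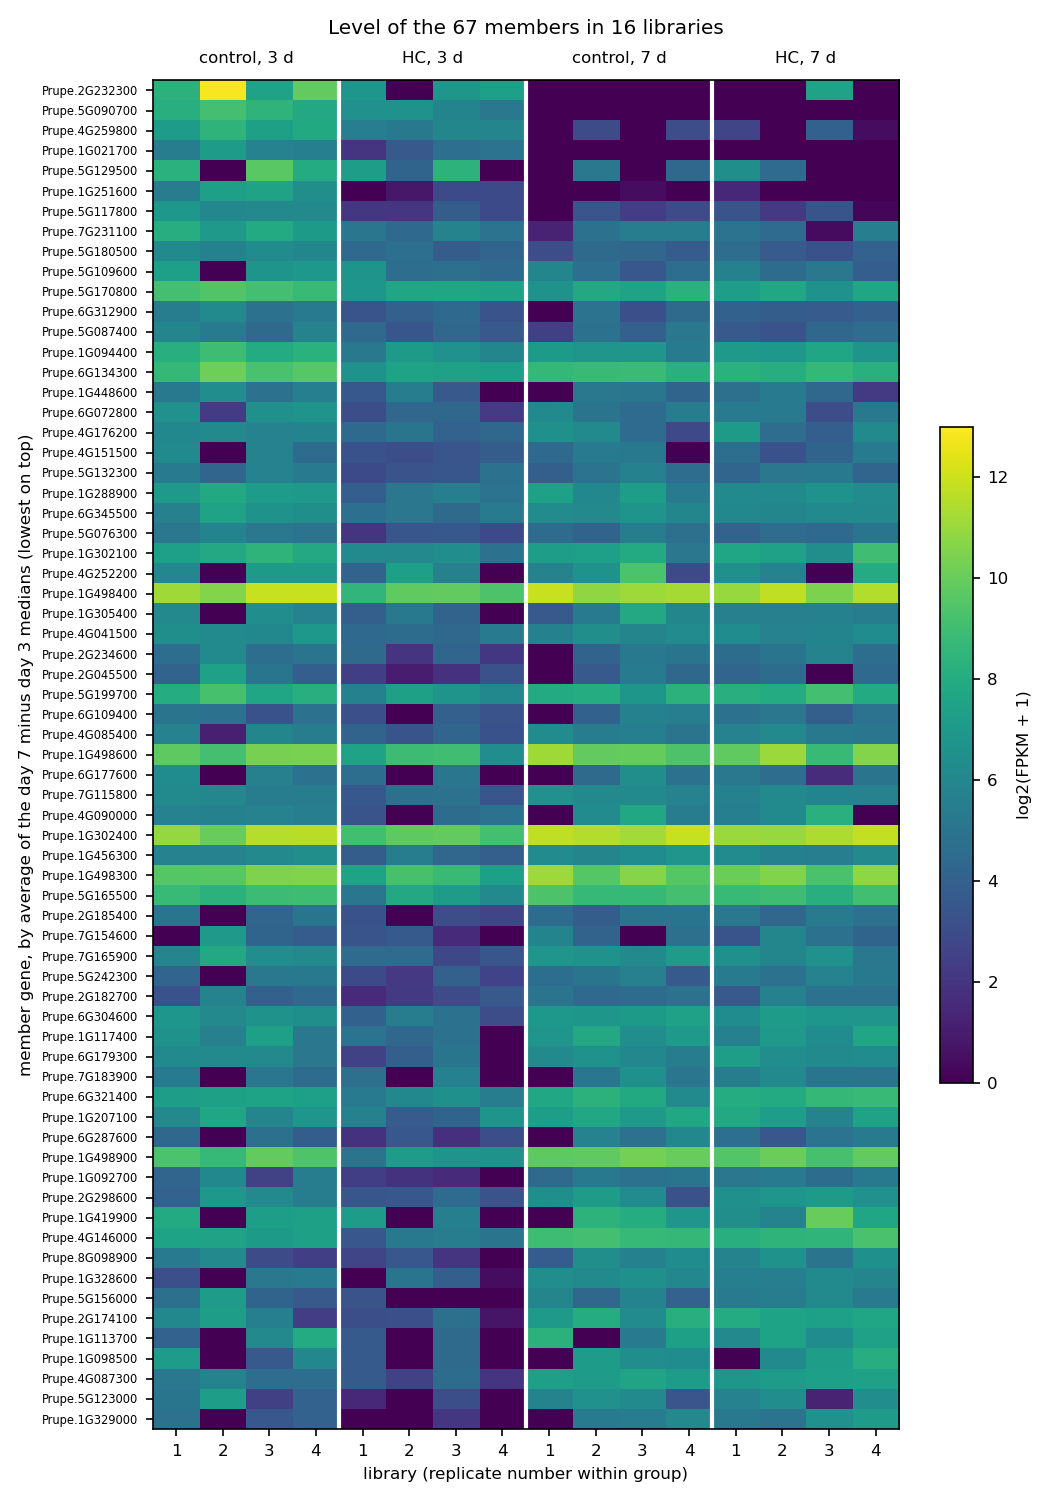
Level of each of the 67 members (rows, ordered by the average of the day 7 minus day 3 differences of group medians, lowest on top) in the 16 libraries (columns, 4 per group), as log2(FPKM + 1) in colour; the darkest colour is a gene listed at 0. The HC columns of day 3 are darker than the control columns of that day, and the top rows are dark in both groups of day 7.

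By group medians, HC minus control at 3 days ran from -5.01 to -1.51 over the members, with a median of -1.94. The median over all 5733 genes was 0.01. At 7 days the members ran from -0.49 to 0.50 with a median of 0.02, and the median of the 5733 genes was 0.10. Of 203 genes at or under -1.5 at 3 days, these 67 were inside the window of day 7, 51 were under it and 85 were over it. The mirror rule, 1.5 or more at 3 days with the same window, takes 99 genes. Mean levels of the members ran from 20.5 to 2179 FPKM with a median of 60.3, and 19 members were under 30 FPKM while 6 reached 500 FPKM or more.

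In 40 of the 67 members all 4 HC libraries of day 3 were below all 4 control libraries of that day, a separation that 6.87% of the 5733 genes showed. In 36 members they were below all 4 HC libraries of day 7 (15.7% of the 5733 genes), in 24 members below both of these groups (3.16%), and in 19 members below all 12 other libraries (2.01%). The rule favours such genes, so nothing is read from these shares. In the members outside the 40, 1 or more libraries crossed between HC and control on day 3. In Prupe.1G328600, HC replicates 2 and 3 of day 3 were at 32.5 and 14.3 FPKM. Both were above control replicates 1 and 2 of that day, at 8.08 and 0 FPKM.

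At each edge of the rule, members and other genes had near-equal values. Prupe.7G154600 was inside at -1.51 and Prupe.5G079700 outside at -1.49 at 3 days. At 7 days Prupe.1G329000 was inside at 0.4994 and Prupe.1G498800 outside at 0.5051, while at the lower edge Prupe.1G328600 was inside at -0.49 and Prupe.6G275500 outside at -0.51. By mean level Prupe.2G185400 was inside at 20.5 FPKM and Prupe.8G174800 outside at 19.8 FPKM. A further 164 genes below a mean of 20 FPKM met both other limits.

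The gap between HC and control could close from either side, so the medians were followed within each treatment, with 0.5 on the log2(FPKM + 1) scale as the limit for a shift between days. In 29 members the control median stayed within the limit and the HC median was higher at 7 than at 3 days, with class medians of 0.06 in control and 1.79 in HC. In 16 members both medians were higher at 7 days, by a class median of 1.35 in control and 3.72 in HC. In 9 members the control median was lower and the HC median higher at 7 days, with class medians of -0.61 and 1.30.

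In the other 13 members the HC level did not return upwards. In 7 of them the HC median stayed within the limit while the control median was lower at 7 days, with class medians of 0.003 in HC and -2.06 in control. In 6 of them both medians were lower at 7 days, by class medians of -6.50 in control and -4.17 in HC. For these 13 a transient fall after HC is not what the levels show, because the control level came down to that of HC, or both went down. Over all 67 members, day 7 minus day 3 had a median of -0.09 in control and 1.77 in HC, against -0.10 and -0.01 over the 5733 genes. These differences share libraries with the rule and are a description.

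**Figure D2:**
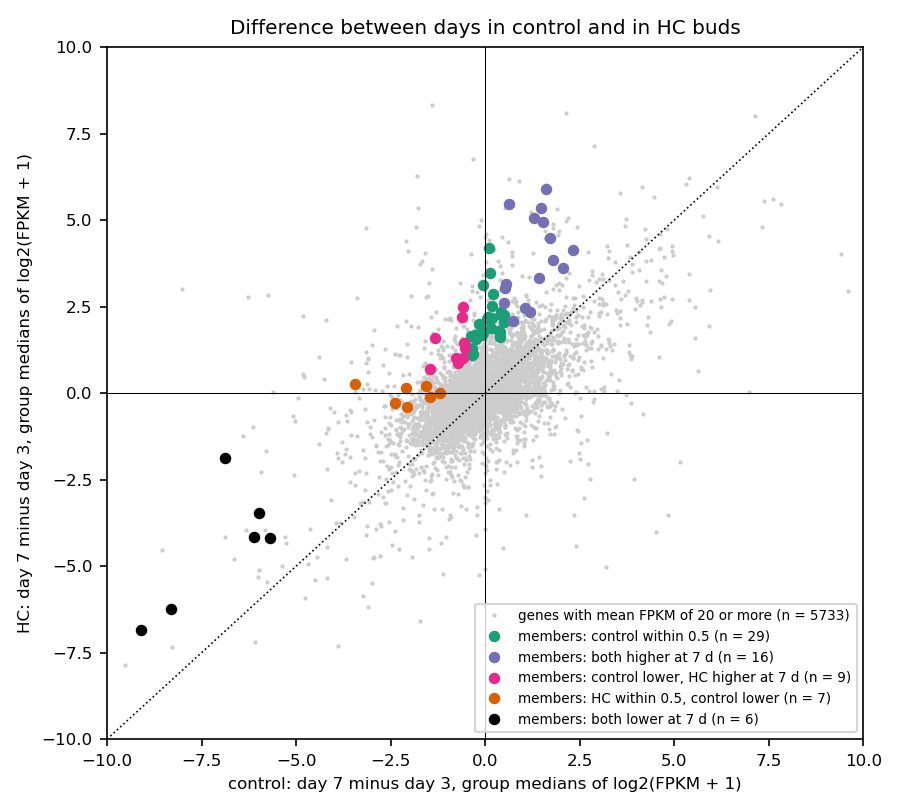
Day 7 minus day 3 of the group medians of log2(FPKM + 1) in control (x axis) and in HC buds (y axis) for the 67 members, coloured by course, and for all genes with a mean of 20 FPKM or more in grey. The dotted line marks equal differences in both treatments; 54 members lie above the horizontal zero line by more than 0.5, while 7 lie near that line left of centre and 6 at the lower left.

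Among members whose control level was similar on both days, Prupe.1G302400 had the highest mean level of all members, 2179 FPKM. It was at 1989, 1008, 2957 and 3135 FPKM in control and at 528, 874, 937 and 549 FPKM in HC buds of day 3. On day 7 it was at 3436, 2906, 2347 and 3870 FPKM in control and at 2089, 2016, 2660 and 3566 FPKM in HC buds. Every HC library of day 3 was below all 12 others, although control replicate 2 of that day, one of the shallow libraries, was only slightly above the highest of them.

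Prupe.5G165500 showed the same course at a lower level. It was at 443, 332, 482 and 497 FPKM in control and at 33.8, 226, 145 and 70.6 FPKM in HC at 3 days. At 7 days control libraries were at 665, 412, 410 and 573 FPKM and HC libraries at 443, 501, 293 and 528 FPKM. The 4 HC libraries of day 3 were the lowest of the 16. Prupe.6G304600 was at 115, 68.7, 103 and 86.7 FPKM in control and at 15.4, 42.3, 29.3 and 7.46 FPKM in HC at 3 days. Its day 7 values were 120, 116, 134 and 175 FPKM in control and 80.0, 142, 112 and 110 FPKM in HC, again with no overlap between HC buds of day 3 and the rest.

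In other members the control level was itself higher at 7 days. Prupe.4G146000 was at 185, 177, 133 and 164 FPKM in control and at 10.7, 37.8, 42.7 and 31.4 FPKM in HC at 3 days. Values of day 7 were 503, 555, 419 and 407 FPKM in control and 284, 352, 362 and 626 FPKM in HC. All day 7 libraries were above all day 3 libraries, and HC buds of day 3 were below their controls without overlap.

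Prupe.4G087300 was at 35.6, 56.8, 24.2 and 25.0 FPKM in control and at 11.6, 4.94, 22.9 and 3.01 FPKM in HC at 3 days. At 7 days it was at 162, 144, 192 and 145 FPKM in control and at 118, 146, 159 and 171 FPKM in HC. Here too every day 7 library was above every day 3 library, and on day 7 the groups overlapped almost fully. Prupe.2G174100 was at 65.4, 157, 47.9 and 4.10 FPKM in control and at 7.66, 7.90, 27.3 and 0.69 FPKM in HC at 3 days, so 1 control library lay among the HC libraries. On day 7 it was at 131, 266, 76.7 and 297 FPKM in control and at 258, 185, 163 and 206 FPKM in HC.

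Prupe.5G156000 had the second-lowest difference at 3 days, -4.50. It was at 27.1, 146, 17.3 and 11.3 FPKM in control at 3 days and at 8.91 FPKM in HC replicate 1, and was listed at 0 in the other 3 HC libraries. Its day 7 values were 59.4, 19.8, 58.3 and 16.0 FPKM in control and 39.7, 44.0, 74.4 and 41.4 FPKM in HC. The HC libraries of day 3 were below all others, and in no other group was the gene listed at 0.

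In another set the control level was lower and the HC level higher at 7 days, so that both met in between. Prupe.6G134300 was at 398, 1116, 612 and 777 FPKM in control and at 100, 183, 174 and 162 FPKM in HC at 3 days. Values of day 7 were 409, 426, 462 and 305 FPKM in control and 315, 269, 409 and 299 FPKM in HC. Prupe.1G094400 was at 295, 504, 252 and 309 FPKM in control and at 37.0, 136, 94.4 and 61.2 FPKM in HC at 3 days. At 7 days it was at 136, 108, 110 and 41.3 FPKM in control and at 129, 119, 197 and 106 FPKM in HC. In both genes HC was below control without overlap on day 3, while on day 7 the groups overlapped.

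Prupe.5G170800 stands for the members whose HC level was alike on both days. It was at 555, 697, 555 and 447 FPKM in control and at 114, 196, 196 and 183 FPKM in HC at 3 days. On day 7 it was at 103, 227, 178 and 317 FPKM in control and at 157, 216, 101 and 197 FPKM in HC. The 4 control libraries of day 3 were above all 12 others, and the other 3 groups overlapped.

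The same picture held for Prupe.7G231100, at 277, 129, 245 and 137 FPKM in control and 33.9, 20.9, 55.9 and 30.0 FPKM in HC at 3 days. Its day 7 values were 1.36, 27.6, 42.4 and 43.8 FPKM in control and 30.2, 22.7, 0.29 and 46.2 FPKM in HC. In Prupe.5G117800 control libraries were between 66.7 and 121 FPKM at 3 days, and the other 12 libraries were at 13.3 FPKM or less, with control replicate 1 of day 7 listed at 0. Prupe.5G180500 was between 52.3 and 75.5 FPKM in control at 3 days and at 25.6 FPKM or less in the other 12 libraries.

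In both treatments 6 members were lower on day 7, and 4 of them had a median of 0 in both groups of that day. Prupe.5G090700 was at 279, 546, 356 and 229 FPKM in control and at 95.4, 97.4, 57.5 and 35.7 FPKM in HC at 3 days, with 0 in each of the 8 libraries of day 7. Prupe.1G021700 was at 43.4, 138, 53.3 and 48.8 FPKM in control and at 2.88, 11.2, 26.3 and 30.0 FPKM in HC at 3 days, and likewise had 0 throughout day 7. In both genes HC buds of day 3 were below control buds without overlap and above all buds of day 7. By group medians depth was lower on day 7, while HC replicate 1 of that day had 16.7 M reads and control replicate 2 of day 3 had 1.39 M. The part of depth in these zeros was not tested.

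Prupe.1G251600 had the lowest difference at 3 days, -5.01. It was at 45.2, 158, 178 and 85.2 FPKM in control at 3 days, at 0.76, 6.52 and 6.53 FPKM in HC replicates 2, 3 and 4, and listed at 0 in HC replicate 1. At 7 days control replicate 3 was at 0.35 FPKM and HC replicate 1 at 1.85 FPKM, and the other 6 libraries were listed at 0. HC buds of day 3 were therefore closer to buds of day 7 than to control buds of their own day. Prupe.4G259800 was at 144, 349, 169 and 233 FPKM in control and at 45.9, 36.8, 62.6 and 58.9 FPKM in HC at 3 days. On day 7 control replicates 2 and 4 were at 7.14 and 7.39 FPKM, HC replicates 1, 3 and 4 at 5.60, 15.1 and 0.34 FPKM, and the other 3 libraries at 0. Every day 7 library was below every day 3 library.

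Prupe.2G232300 was at 328, 7394, 180 and 932 FPKM in control at 3 days, but these values stand for an estimated 2.5, 20.4, 4.0 and 25.1 reads. In HC it was at 113, 117 and 163 FPKM in replicates 1, 3 and 4 of that day and listed at 0 in replicate 2. At 7 days it was listed at 0 except for 177 FPKM, an estimated 0.9 reads, in HC replicate 3. Counting error is large at such numbers of reads.

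**Figure D3:**
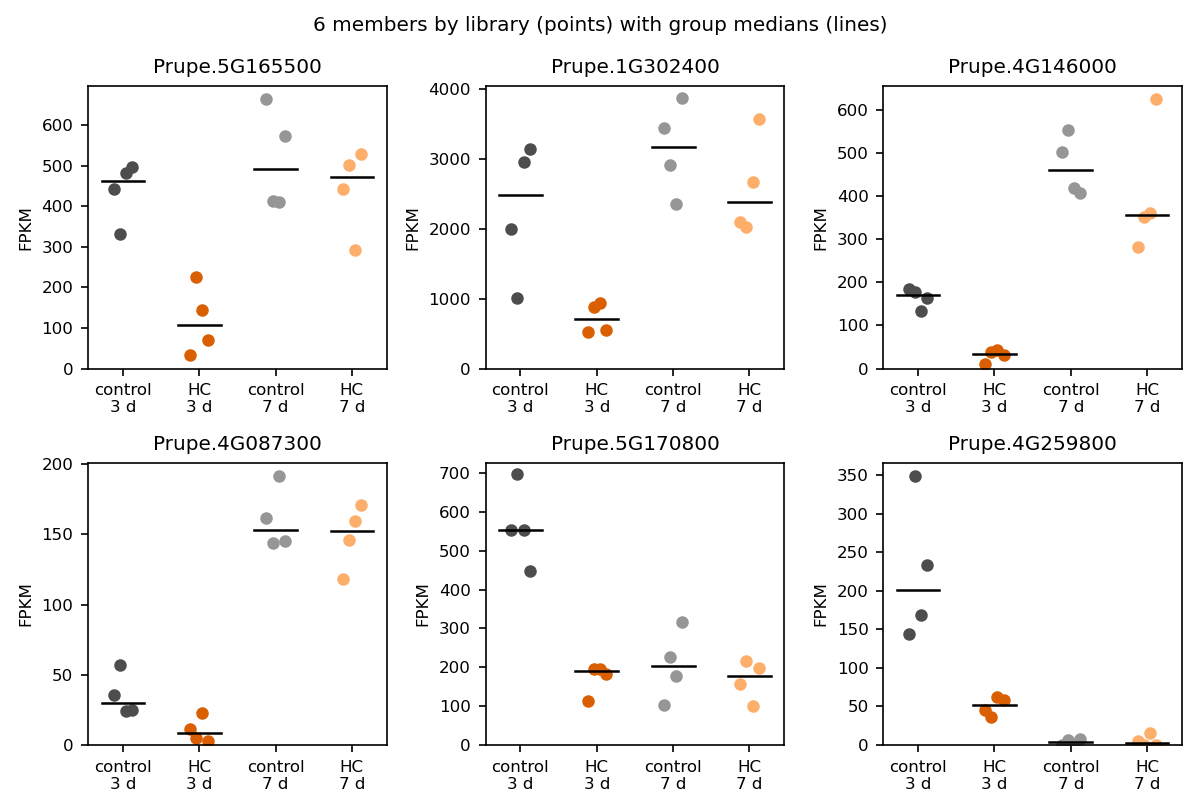
FPKM of 6 members in each library (points) by group, with the group median as a line; the axes start at 0 and differ between panels. Prupe.5G165500 and Prupe.1G302400 have similar control levels on both days, Prupe.4G146000 and Prupe.4G087300 are higher on day 7 in both treatments, and for Prupe.5G170800 and Prupe.4G259800 control libraries of day 3 stand above the rest.

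The change from day 3 to day 7 averaged over control and HC buds, 8 libraries against 8, is another contrast than the 2 of the rule, but it is not free of it. It equals the control change plus 0.5 times the difference between the HC effects of both days, and by group medians that second term was at least 0.58 in every member, with a median of 0.97, because of the rule. A higher value is thus in part built into the choice of members, and this term goes against a lower one. A lower value is not free of the rule either, because the rule favours high control levels on day 3. With a median of 0 in both groups of day 7, as in 4 members, a gene meets the window of that day by default. Such a gene reaches the mean of 20 FPKM through its day 3 level. The control change alone, by group medians on the log2(FPKM + 1) scale, had a median of -0.09 in the members and of -0.10 in the 5733 genes with a mean of 20 FPKM or more.

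With limma on log2(FPKM + 1) over 16596 genes, all 67 members passed the filter on low values. At a Benjamini-Hochberg adjusted p under 0.05, 22 members were called higher and 9 lower at 7 days, and 36 were not called. The shares are 32.8% and 13.4%, beside 6.65% and 6.57% of all tested genes and 13.0% and 14.6% of the 5719 tested genes with a mean of 20 FPKM or more. Nothing is read from the higher share, since the rule favours it. Nor is anything read from the lower share, at 13.4% near the 14.6% of the tested genes with this mean.

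As a description, Prupe.2G174100 was higher at 7 days by 3.38 ± 0.62 (log2, limma estimate and standard error), with all 8 libraries of day 7 above the median of day 3. Prupe.4G087300 was higher by 3.12 ± 0.32 and Prupe.4G146000 by 2.64 ± 0.24, both with all libraries of day 7 above all of day 3. In these 3 genes the control medians alone were higher at 7 days by 1.72, 2.32 and 1.42. Prupe.6G304600 was higher by 1.48 ± 0.28, Prupe.1G302400 by 1.21 ± 0.22 and Prupe.5G165500 by 1.20 ± 0.29, in 8 of 8 libraries each. In the last 3, in that order, day 7 minus day 3 of the medians was 0.42, 0.38 and 0.07 in control and 2.33, 1.77 and 2.21 in HC.

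The members that fell on average are also given as a description. Prupe.5G090700 and Prupe.1G021700 were at 0 in all 8 libraries of day 7 and reached the mean of 20 FPKM through day 3 alone. The choice of members thus favours their fall, and no p-value is given. A fold change depends on the pseudocount there and is not given either. Prupe.4G259800, Prupe.1G251600, Prupe.2G232300, Prupe.5G180500 and Prupe.5G117800 also reached that mean through their day 3 levels, so no p-value is given for their falls. Prupe.4G259800 fell by 5.04 ± 0.61 (log2, limma), also a value that the zeros make depend on the pseudocount. Prupe.5G180500 fell by 1.25 ± 0.32 and Prupe.5G117800 by 2.28 ± 0.57, each with 8 of 8 libraries of day 7 below the median of day 3. The call of Prupe.5G117800 was lost with a pseudocount of 0.1, and that of Prupe.2G232300 when tested on estimated reads. Prupe.5G170800 fell by 0.80 ± 0.22 (limma, adjusted p = 0.0199), a call lost without trend and robust settings (adjusted p = 0.079) and on estimated reads (adjusted p = 0.0591).

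Prupe.7G231100, at -2.26 ± 0.70 (adjusted p = 0.0405, limma), kept its call in 13 of 28 alternatives. The call was lost without any 1 of the 4 HC libraries of day 3, without control replicate 1, 3 or 4 of day 3, without control replicate 1 of day 7 or without HC replicate 2 of day 7, with values between -2.38 and -1.76. In Prupe.6G134300 and Prupe.1G094400 the control median was lower and the HC median higher at 7 days, and the average changes were 0.15 ± 0.19 and -0.50 ± 0.28.

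**Figure D4:**
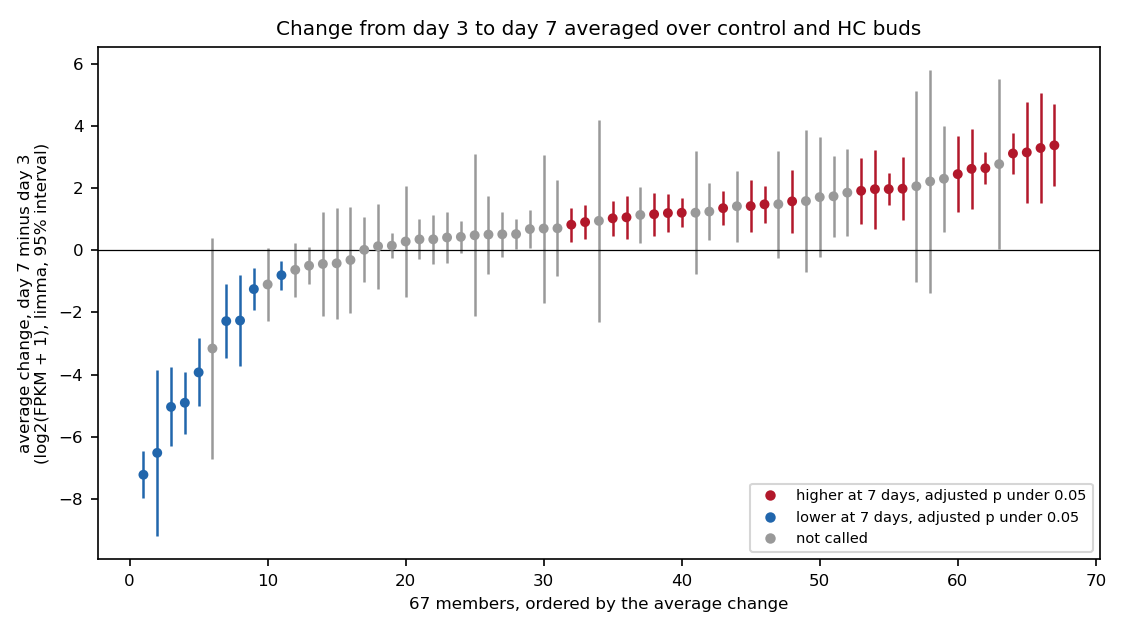
Change from day 3 to day 7 averaged over control and HC buds for the 67 members in order of size, as limma estimates on the log2(FPKM + 1) scale with 95% intervals. The 22 members called higher are red, the 9 called lower are blue and the 36 others grey; the longest intervals belong to members listed at 0 in some libraries of a group.

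For HC against control, whose outcome the rule sets, limma called 25 of the 67 members lower and 0 higher at 3 days. Of all tested genes 0.735% were called lower and 1.08% higher. Of the 5719 tested genes with a mean of 20 FPKM or more, 1.98% were called lower and 2.22% higher. The count of members called lower was 15 without HC replicate 1 and 16 without HC replicate 4 of that day. Limma estimates of the members at 3 days, which compare group means, ran from -5.03 to -0.06 with a median of -1.98. By group means some members were thus barely lower with HC. At 7 days limma called 0 members in either direction, with 0 at an unadjusted p under 0.05, and limma with voom weights on estimated reads called 0 of 65 with 7 at an unadjusted p under 0.05. The background at 7 days was 0.446% of tested genes. Limma estimates of the members at 7 days ran from -1.07 to 1.87. Their 95% interval lay within 1 log2 unit of no difference in 8 of the 67, and the median interval reached 1.55 to each side. A count of 0 calls is therefore no evidence that the levels were equal. The HC effect at 7 days minus that at 3 days was called higher for 5 members, and for 0 without HC replicate 4 of day 7. The background was 0.356% of tested genes and 0.874% of those with a mean of 20 FPKM or more. Over all genes that contrast had 59 calls higher and 22 lower, and 45 and 32 with median-of-ratios scaling. No support is drawn from these counts.

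In the authors' deposited table of day 3 all 67 members were listed, 46 of them lower with HC at an adjusted p under 0.05 and 0 higher, against 4.53% of its genes called lower. Their log2 fold changes in that table ran from -4.86 to -0.21 with a median of -1.68. The authors' deposited table of day 7 listed 65 members, all but Prupe.5G090700 and Prupe.1G021700, with a median of -0.12 and a range of -0.84 to 0.92. A single member was lower at an adjusted p under 0.05, Prupe.1G328600 at -0.53 (adjusted p = 0.0413), against 3.62% of the genes in the authors' deposited table, and 0 were higher.

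Some members had neighbouring identifiers. By the number after the letter G, 5 pairs of successive members were within 1000 of each other: Prupe.1G302100 and Prupe.1G302400, Prupe.1G328600 and Prupe.1G329000, and the 3 steps of a run of 4, Prupe.1G498300, Prupe.1G498400, Prupe.1G498600 and Prupe.1G498900. Identifiers starting with 1G held 21 members of 1327 genes with a mean of 20 FPKM or more, those with 2G 7 of 648, 3G 0 of 644, 4G 9 of 560, 5G 14 of 575, 6G 10 of 814, 7G 5 of 577 and 8G 1 of 578. Over all series the share was 1.17%, and it ran from 0 in 3G to 2.43% in 5G.

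The run of 4 held some of the most abundant members. Prupe.1G498400, the second in mean level at 2160 FPKM, was at 2257, 1529, 3891 and 3880 FPKM in control and at 377, 896, 940 and 666 FPKM in HC at 3 days. At 7 days it was at 3853, 1863, 2163 and 2402 FPKM in control and at 2045, 3493, 1376 and 2932 FPKM in HC. HC buds of day 3 were below all 12 other libraries.

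Prupe.1G498900 differed most within the run. It was at 631, 414, 924 and 690 FPKM in control and at 31.5, 138, 104 and 96.5 FPKM in HC at 3 days. On day 7 it was at 869, 902, 1246 and 1010 FPKM in control and at 739, 1064, 586 and 939 FPKM in HC, so again only the HC libraries of day 3 stood apart. Prupe.1G498300 ran from 752 to 1473 FPKM in control and from 163 to 598 FPKM in HC at 3 days, and from 618 to 2187 FPKM over both groups at 7 days. Prupe.1G498600 ran from 571 to 1354 FPKM in control and from 80.5 to 507 FPKM in HC at 3 days, and from 442 to 2254 FPKM at 7 days, where it overlapped with HC of day 3.

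Averaged over both treatments, day 7 minus day 3 was 1.97 ± 0.25 for Prupe.1G498900 (log2, limma estimate and standard error), with 8 of 8 libraries of day 7 above the median of day 3. It was 1.06 ± 0.33 for Prupe.1G498300 (adjusted p = 0.0406, limma) and 0.82 ± 0.26 for Prupe.1G498400 (adjusted p = 0.0432, limma). These 2 kept their call in 12 and 13 of 28 alternatives. Prupe.1G498600, at 1.14 ± 0.42, was not called (adjusted p = 0.0963, limma). In control alone the medians of the 4 members of the run differed between days by 0.53, 0.06, -0.38 and -0.16, in the same order.

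Within the same stretch, Prupe.1G498700 missed the rule with -0.98 at 3 and 0.48 at 7 days, Prupe.1G498800 missed it by its 7-day value, and Prupe.1G498500 was listed at 0 in every library. The flanking Prupe.1G498200 and Prupe.1G499000 had mean levels of 2.25 and 15.3 FPKM and HC minus control values of -0.17 and 0.45 at 3 days. Over the 16 libraries, deviations from the group means of log2(FPKM + 1) correlated between the 4 members of the run with r from 0.46 to 0.90, while the 2211 pairs of members had a median r of 0.05 and quartiles of -0.20 and 0.30. These r describe libraries that share depth and tree. No sequences were compared, so it is not known whether these neighbours are near-identical copies that share reads. Their levels may therefore not be independent.

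**Figure D5:**
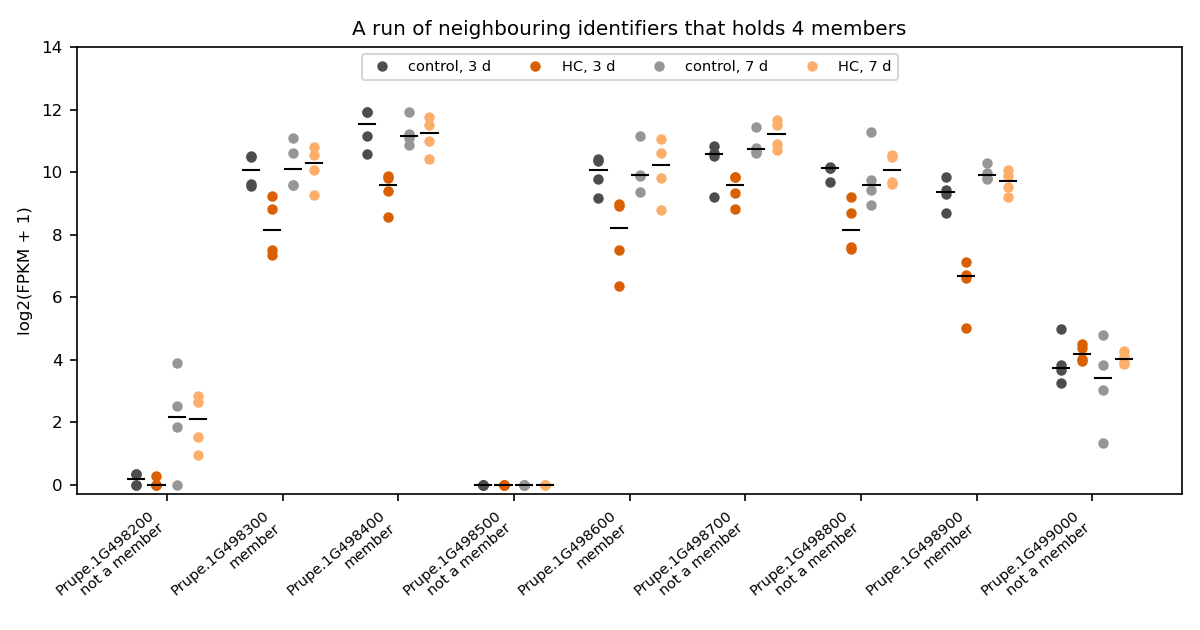
log2(FPKM + 1) of 9 successive identifiers from Prupe.1G498200 to Prupe.1G499000 in each library (points, coloured by group), with group medians as lines. The 4 members and Prupe.1G498700 and Prupe.1G498800 have high levels with HC buds of day 3 lowest, while the 2 flanking genes are far lower and Prupe.1G498500 is at 0.

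Of the other neighbouring pairs, Prupe.1G302100, next to the abundant Prupe.1G302400, was at 158, 232, 347 and 227 FPKM in control and at 70.8, 69.2, 81.5 and 28.4 FPKM in HC at 3 days. At 7 days it ran from 35.1 to 245 FPKM in control and from 84.2 to 525 FPKM in HC, and its average change was 0.41 ± 0.39 (log2, limma). Prupe.1G328600 and Prupe.1G329000 were both low on day 3. The first was at 8.08, 36.1 and 40.4 FPKM in control replicates 1, 3 and 4 and at 32.5, 14.3 and 0.33 FPKM in HC replicates 2, 3 and 4 of day 3, and was listed at 0 in control replicate 2 and HC replicate 1. On day 7 control libraries ranged from 67.3 to 89.9 FPKM and those of HC from 46.5 to 71.1 FPKM, all above every library of day 3.

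Prupe.1G329000 was at 28.0, 10.6 and 15.8 FPKM in control replicates 1, 3 and 4 and at 3.21 FPKM in HC replicate 3 of day 3, with the other 4 libraries of that day at 0. On day 7 control replicate 1 was listed at 0, control replicates 2, 3 and 4 were at 38.9, 44.4 and 68.5 FPKM and HC libraries at 36.6, 30.3, 95.2 and 143 FPKM. Averaged over both treatments, Prupe.1G328600 was higher at 7 days by 3.15 ± 0.77 (log2, limma) in 8 of 8 libraries, and Prupe.1G329000 by 3.29 ± 0.84 in 7 of 8.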

How the data were processed

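The authors deposited a matrix of 26873 identifiers in 16 libraries, whose values are FPKM as far as the numbers show, and a table per day with log2 fold changes, adjusted p-values and a signal value per treatment. The submitters' processing notes name RSEM 1.2.31, STAR 2.5.2a and Trimmomatic. The genome build and the test behind the p-values are not given in the sources used here. Labels gave groups and replicates. The FPKM were tested with limma 3.58.1 (R 4.3.3, trend and robust settings) on log2(FPKM + 1), for the 16596 genes that reached 1 FPKM in 4 or more libraries. One mean per group was fitted over all 16 libraries, with Benjamini-Hochberg adjustment over all tested genes and a two-sided threshold of 0.05. The fit of the average change was run on simulated independent libraries, which cannot show how it performs where libraries share trees. A fold change on this scale is understated for low genes.

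Depth was estimated from the steps between low values, after dividing the deposited signal by FPKM to get a length factor for 18510 genes in both deposited tables. Between 81.1% and 95.0% of low values per library lay within 0.2 of a whole number of reads. The step of each library was chosen to make this share high, so the share is no check of the depth. Alternatives were other scalings, pseudocounts, filters and moderation, library weights, replicate blocks, each library left out in turn and limma with voom weights on the estimated reads.

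The members and lists were chosen with earlier results of these data known. The rule also left out 7 identifiers of 1 range, of which 0 met its limits. Genes are named by rule: the 2 lowest differences at 3 days, the 2 highest means, the 2 highest and 2 lowest average changes that passed, the 2 most abundant with a level alike on both days in control and in HC, those at each edge, and those within 1000 of another member. Prupe.4G146000, Prupe.4G087300, Prupe.5G165500, Prupe.1G098500, Prupe.1G113700, Prupe.4G259800, Prupe.1G021700, Prupe.6G134300, Prupe.1G094400, Prupe.6G304600, Prupe.5G117800 and Prupe.5G180500 were added after their values were seen. Lists by product name could not be used, because 0 of the identifiers were found among 26412 genes of the annotation given, and no sequence is printed for that reason.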

Additional observations from a re-analysis of the deposited data

Results flagged for a closer look

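Groups of 4 libraries were screened for 1 library far from the other 3, for the genes named here and for summaries over all members. Of 124 such groups, 12 were flagged. The limit gives about 1 in 20 for normally distributed values. FPKM are skewed, and 1 value above 0 among zeros is always flagged, so nothing is read from the count.

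In control buds of day 3, replicate 2, which has 1.39 M (mega) estimated reads, was the high library for Prupe.2G232300 (7394 FPKM), Prupe.5G156000 (146 FPKM), Prupe.7G154600 (128.9 FPKM) and Prupe.1G021700 (138 FPKM), and replicate 1 was for Prupe.5G117800 (121 FPKM). In HC buds of day 3, Prupe.1G329000 was high at 3.21 FPKM in replicate 3, Prupe.5G156000 high at 8.91 FPKM in replicate 1, and Prupe.5G170800 low at 114 FPKM in replicate 1. At 7 days, Prupe.1G251600 was at 0.35 FPKM in 1 control library and at 1.85 FPKM in 1 HC library and at 0 in the others, Prupe.2G232300 was at 177 FPKM in HC replicate 3, and Prupe.5G156000 at 74.4 FPKM in HC replicate 3. The part of depth in these values was not tested.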

How the results depend on the processing

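The average change from day 3 to 7 was called for 31 members, for 24 to 34 without 1 library each, for 23 with a pseudocount of 0.1 or without trend and robust settings, and for 32 without the 2 shallowest libraries (this and the test on estimated reads were chosen after seeing the data); 18 members, 13 higher and 5 lower, were called in every fit that tested them, 29 fits, or 28 for Prupe.5G090700 and Prupe.1G021700, which have no estimated reads. Prupe.1G302100 changed sign on estimated reads (-0.15), and the cause was not tested. HC against control at 3 days was called for 25 members, for 14 without trend and robust settings and for 15 to 27 without 1 library, with 15 without HC replicate 1 and 16 without HC replicate 4 of that day. At 7 days 0 members were called in all fits. The HC effect at 7 minus that at 3 days was called for 5 members, for 2 with median-of-ratios scaling or no filter on low values, for 1 with a pseudocount of 0.1 or without trend and robust settings, for 8 with a pseudocount of 5, for 15 on estimated reads and for 0 to 7 without 1 library: 0 without HC replicate 4 of day 7; 1 without control replicate 3 or 4 of day 3, or without control replicate 4 or HC replicate 1 of day 7; 2 without HC replicate 4 of day 3, or without control or HC replicate 3 of day 7; and 3 without control replicate 1 or HC replicate 1 or 3 of day 3, or without control replicate 1 or HC replicate 2 of day 7. Over all genes, HC against control at 3 days had 301 calls, 138 without trend and robust settings, 869 with library weights and 911 on estimated reads; at 7 days it had 74, 14 with the libraries of that day alone, 43 with the replicate block, 44 with a pseudocount of 0.1 and 120 with 5. Without 1 library the first ran from 169 (HC replicate 1 of day 3) to 346 and the second from 26 (control replicate 1 of day 7) to 166 (control replicate 2 of day 7). The difference had 81, with 33 to 227 under these settings and 34 (without HC replicate 4 of day 7) to 107 without 1 library, and the average change 2193, with 3304 under library weights. Quantile normalization moved the median HC minus control of all genes at 7 days from 0.27 to 0.05. The rule itself takes 67 genes, 172 with a mean of 5 FPKM or more, 38 with a mean of 50 or more, and 62 to 98 without 1 library. Of the 67, 44 stayed members without HC replicate 4 of day 3, the fewest without 1 library. The most, 61, stayed without HC replicate 3 of that day. With group means the rule takes 68, of which 37 are shared with the medians. The median day 7 minus day 3 of the members ran from -0.22 to 0.014 in control and from 1.42 to 2.03 in HC without 1 library. Median-of-ratios scaling left 56 members, 52 of them shared. Same-numbered libraries of 2 groups correlated with r from -0.11 to 0.083 over genes, so the numbers were not taken to pair the trees. With replicate number as a replicate block, the average change was called for 29 members, HC against control at 3 days for 23, and the difference between days for 3, or for 2 with treatment and number as the block. For the average change, both blocks ended the calls of Prupe.7G231100 (adjusted p = 0.065 with number, 0.064 with treatment and number) and Prupe.1G498300 (0.081 and 0.070), the first that of Prupe.1G498400 (0.075); Prupe.2G185400 was called with both (0.022 and 0.042) and Prupe.1G113700 with the second (0.032). Among the HC libraries of day 3, each control library of that day correlated best with the one of its own number. The reverse was not looked at. Control and HC came from different trees, so this match cannot pair trees, and its cause was not tested. Between days, HC replicates 1 and 2 also correlated best with their own number (r of 0.082 and 0.046). HC replicates 3 and 4 and the control replicates did not. Low estimated reads limit the level of members such as Prupe.2G232300.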

Other observations

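Prupe.1G098500 and Prupe.1G113700, both members, had the same FPKM in all 4 HC libraries of day 3: 11.68 in replicate 1, 21.34 in replicate 3 and 0 in replicates 2 and 4. These stand for about 3 and 8 estimated reads. Their values above 0 differed in all other libraries, with 146, 0, 11.5 and 65.9 FPKM for Prupe.1G098500 and 16.3, 0, 68.9 and 258 FPKM for Prupe.1G113700 in control buds of day 3. No other pair of members had 2 or more equal values above 0 in the same libraries. Their average changes from day 3 to 7 were 2.06 ± 1.45 and 2.78 ± 1.29 (log2, limma estimate and standard error). Over all alternatives the first ran from 0.66 to 2.96 and the second from 0.75 to 3.66.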
